A study of Mus musculus with 8 samples.

Results

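The long non-coding RNA table of 4 B-cell populations from mouse bone marrow held 8747 transcripts that carry an assembler's number beginning with MSTRG in place of a gene name. Of these unannotated transcripts, 1953 had counts that summed to 1000 or more over the 4 libraries, and these abundant unannotated transcripts are described here. They were chosen by their counts, so their abundance is a description and was not tested. The 1 transcript just inside the limit was MSTRG.23377.9, whose counts were 226.6 in pro-B, 243.5 in pre-B, 319.5 in immature B and 210.9 in mature B cells. The 1 just outside was MSTRG.27962.11, with counts of 210, 127, 220 and 442 in the same order.

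RNA was taken from wild type female C57BL/6 mice of 8 to 10 weeks, with cells of 3 mice pooled for each population. Pro-B cells were sorted as B220+IgM-CD43+, pre-B cells as B220+IgM-CD43-, immature B cells as B220+IgM+CD43- and mature B cells as B220hiIgM+CD43-. Each population gave 1 rRNA-depleted, strand-specific RNA library. No library was replicated, so no difference between stages has a replicate check, no p-value is given, and differences between mice cannot be told apart from differences between stages.

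Long non-coding RNAs (lncRNAs) are transcripts longer than the small RNA classes that do not encode a protein, and some of them, such as Malat1 and Xist, are abundant in the nucleus. A transcript assembler joins overlapping reads into transcript models, and a model that does not match a known transcript receives a number of its own. Such a model may lie between genes, inside an intron, on the strand opposite a gene, or may share part of the exons of a known gene. In the number MSTRG.10068.1, for example, MSTRG.10068 names the locus and the last digit names the transcript within it. The table gave neither position, gene, exon number nor class for these rows, and their sequences were not analysed here. Transcripts of 1 locus share reads, which the authors' program divided among them by estimation. Sums and shares of a locus cover only its listed unannotated transcripts. Numbers are missing within some loci, so a locus may hold transcripts that its sum leaves out.

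The 4 libraries fell into pairs before any single transcript was considered. Counts of all unannotated transcripts summed to 2677057 in pro-B, 3382542 in pre-B, 3135988 in immature B and 2638362 in mature B cells. The counts in the mRNA table of the same libraries summed to 867920, 240231, 223495 and 849350 in the same order. Unannotated counts were therefore 3.08 and 3.11 times the mRNA counts in pro-B and mature B cells but 14.1 and 14.0 times in pre-B and immature B cells. The pre-B and immature B libraries stood apart from the other two in this respect, and a change in the amount of one RNA class cannot be told apart from the opposite change in another. In such bulk libraries fewer cells of a type and less RNA per cell cannot be told apart either.

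The sorted cells were checked by the summed counts of marker lists, scaled to 1000000 mRNA counts of the library. The pro-B list (Kit, Il7r, Dntt, Igll1, Vpreb1, Spn) was at 2321, 179, 44.7 and 56.5 from pro-B to mature B cells, and the mature list was at 396, 540, 944 and 4645. The pre-B list (Rag1, Rag2, Il2ra, Vpreb3) was not highest in pre-B cells, at 1278, 1066, 576 and 15.2, and the immature list was at 4337, 7530, 9504 and 5087. Of other cells, T and NK markers were at 205, 0, 0 and 5.89, plasmacytoid dendritic cell markers at 999.5, 225, 377 and 235, and granulocyte and monocyte markers at 1373, 1607, 1280 and 1071. All 6 T and NK markers were at 0 in pre-B and immature B cells. Their counts summed to 178 in pro-B and 5 in mature B cells. The pre-B and immature B libraries had fewer mRNA counts, so values of 0 do not set them apart from mature B cells. Erythroid markers were at 522, 433, 293 and 273, and plasma cell markers at 316, 375, 282 and 111. Their part in the levels of unannotated transcripts was not tested.

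The 1953 abundant transcripts held most of the unannotated counts. Their share was 84.2% in pro-B (95% Wilson interval 84.2 to 84.3%), 88.6% in pre-B (88.5 to 88.6%), 87.6% in immature B (87.6 to 87.7%) and 84.8% in mature B cells (84.7 to 84.8%). These intervals cover counting error only, and the reads carried no molecular identifiers. Among annotated lncRNA transcripts of the same table, 56 of 29916 reached 1000 counts. All annotated lncRNA rows together held 118462, 87216, 91174 and 127145 counts.

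Counts were strongly concentrated in a few transcripts. The transcript MSTRG.10068.1 alone held 9.07% of unannotated counts in pro-B, 13.0% in pre-B, 10.1% in immature B and 7.81% in mature B cells. The 10 transcripts with the most counts over all libraries held 22.0%, 27.3%, 25.8% and 20.8%, and the 100 with the most held 38.0%, 45.5%, 44.1% and 40.6%. In pre-B and immature B cells the counts were thus more concentrated than in pro-B and mature B cells at each of these ranks. Ranked within each library, 251 transcripts were needed to hold 50% of the counts in pro-B cells, 144 in pre-B, 166 in immature B and 186 in mature B cells. The tail was long, since 80% of the counts needed 1436, 1069, 1184 and 1290 transcripts.

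**Figure D1:**
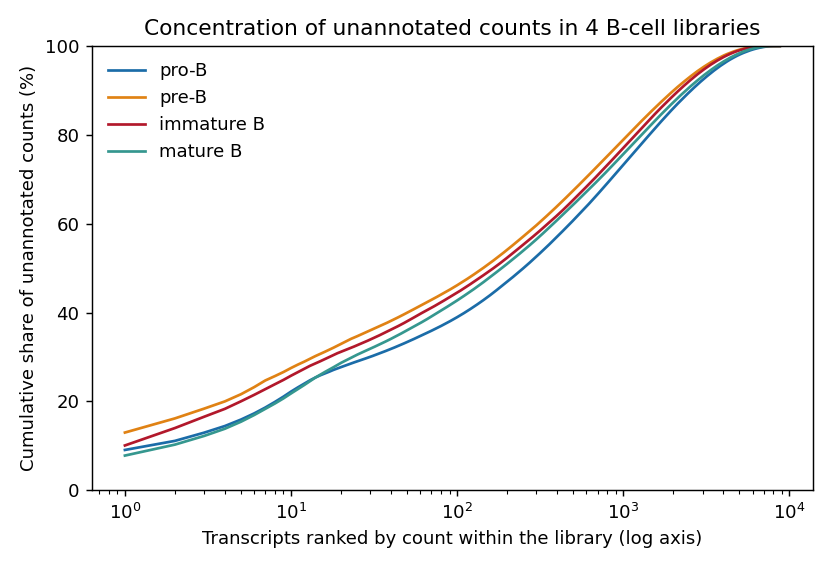
Cumulative share of the unannotated counts (y axis, %) against the number of transcripts ranked by count within each library (x axis, log scale), 1 line per library. The pre-B line starts highest, at 13.0% for 1 transcript, and the pro-B line crosses 50% last, at 251 transcripts.

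MSTRG.10068.1 was the transcript with the most counts in each library. Its counts were 242864 in pro-B, 439315 in pre-B, 316148 in immature B and 205959 in mature B cells. Scaled to 1000000 unannotated counts of the library, the scale called CPM below, these were 90721, 129877, 100813 and 78063. The pre-B library was highest and the mature B library lowest, and the highest was 1.66 times the lowest. The log2 ratio was 0.52 for pre-B over pro-B and -0.22 for mature B over pro-B cells. The CPM total includes MSTRG.10068.1 itself, and without it the ratio of pre-B over pro-B was 0.58. That ratio was 0.84 with TMM factors of edgeR, 0.82 with DESeq2 factors and 2.71 scaled to mRNA counts. The size of the change thus depended on the scaling, while pre-B stayed highest and mature B lowest.

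The deposited FPKM, the fragments per kilobase of transcript and per 1000000 mapped fragments, allows levels to be compared between transcripts of different length. For MSTRG.10068.1 it was 92120, 157661, 123962 and 80335 from pro-B to mature B cells. The transcript with the next highest FPKM was MSTRG.8464.2 in every library, and MSTRG.10068.1 stood 4.09, 3.75, 3.64 and 3.67 times above it. On the FPKM scale MSTRG.10068.1 was 28.2%, 36.2%, 33.3% and 26.0% of the sum over unannotated transcripts. It also made up 4.46%, 7.64%, 6.01% and 3.89% of all fragments that the FPKM denominators imply.

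The locus of MSTRG.10068.1 holds 1 other listed transcript, MSTRG.10068.2, with 12643, 14987, 10993 and 13769 CPM. MSTRG.10068.1 held 87.8%, 89.7%, 90.2% and 85.0% of the locus. The locus as a whole held 10.3%, 14.5%, 11.2% and 9.18% of unannotated counts. The 3 abundant transcripts whose counts were divided over the libraries most like those of MSTRG.10068.1 were MSTRG.31729.1, MSTRG.821.2 and MSTRG.21222.1. Likeness was the smallest summed difference of the share of each library in the transcript's own total, over 4 libraries. MSTRG.31729.1 was at 545, 767, 584 and 471 CPM, with the same order of libraries at a far lower level.

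Length was not given in the table but could be derived from count and FPKM. The unknown denominator was set from 7 intronless genes in the pro-B library, 6 of which gave values within 2% of the median. By this calibration, chosen after the data were seen, annotated Malat1 came out at 6978 nt against 6983 nt in RefSeq, and Rmrp at 281 nt against 275 nt. Derived lengths of 1945 of the 1953 abundant transcripts agreed within 2% between libraries. The denominators of the libraries other than pro-B were set from these same transcripts, so this agreement is no check of the lengths.

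The abundant transcripts were long, with a median derived length of 5514 nt, quartiles of 3304 and 8549 nt, and a range of 232 to 32539 nt. The other unannotated transcripts had a median of 1563 nt. A minimum number of counts favours long transcripts, so this difference is in part fixed by the rule. The most abundant transcript was short: MSTRG.10068.1 came out at 485 nt and MSTRG.10068.2 at 489 nt.

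Short transcripts held far more of the counts than their number. The 77 abundant transcripts under 600 nt were 3.94% of the 1953, yet held 19.4% of unannotated counts in pro-B, 23.8% in pre-B, 18.6% in immature B and 17.8% in mature B cells. Without MSTRG.10068.1 the others of them still held 10.3%, 10.8%, 8.55% and 9.96%. The 344 transcripts of 10000 nt or more held 16.6%, 15.5%, 18.1% and 18.7%.

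Levels per length spanned several orders of magnitude. The median FPKM of the abundant transcripts was 17.6 in pro-B, 19.4 in pre-B, 21.0 in immature B and 16.8 in mature B cells. An FPKM of 1000 or more was reached by 24, 27, 29 and 23 of them. In pro-B cells the median FPKM was 295 for those of 200 to 600 nt, 86.9 for 600 to 2000 nt, 22.5 for 2000 to 5000 nt, 12.7 for 5000 to 10000 nt and 10.8 above. A count threshold admits short transcripts only at a high FPKM, so this order is partly set by the choice of the transcripts.

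**Figure D2:**
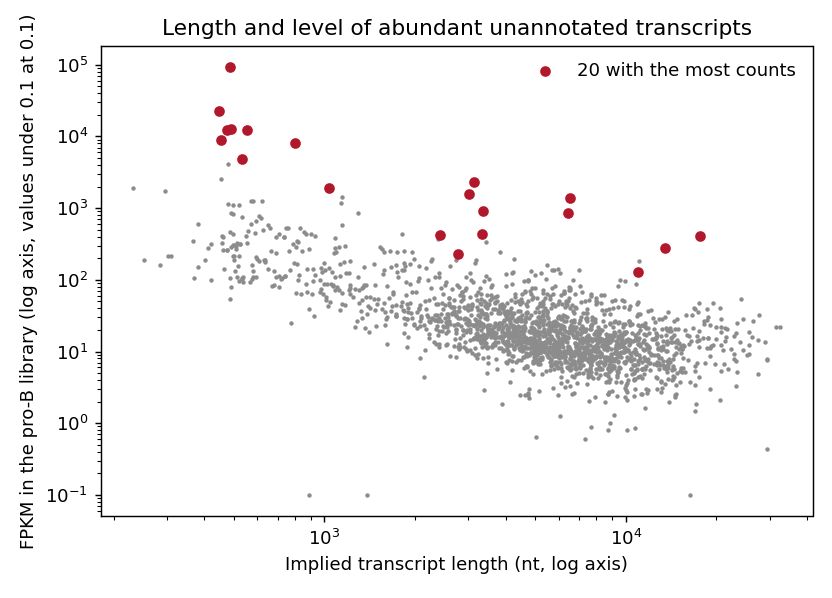
FPKM in the pro-B library (y axis, log scale) against derived length in nt (x axis, log scale) for the 1953 abundant unannotated transcripts, 1 point each, with the 20 of most counts in red. MSTRG.10068.1 is the top point at 485 nt and an FPKM of 92120, and 3 transcripts under an FPKM of 0.1 are drawn at 0.1.

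The 20 transcripts with the most counts differed in how they moved through the stages. MSTRG.8464.2, of 446 nt, was at 20417, 31857, 25474 and 19567 CPM and was highest in pre-B and lowest in mature B cells, as MSTRG.10068.1 was. MSTRG.9963.1, of 797 nt, was at 13246, 16311, 14486 and 12170. MSTRG.9964.1, of 552 nt, was at 13795, 16130, 12902 and 11449. These short transcripts had their highest value in pre-B and their lowest in mature B cells, with the highest 1.63, 1.34 and 1.41 times the lowest. With TMM and DESeq2 factors the pro-B library was lowest for MSTRG.8464.2 and MSTRG.9963.1, whose log2 ratios of mature B over pro-B were then 0.08 and 0.02 with TMM and 0.07 and 0.01 with DESeq2.

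MSTRG.46891.1, of 3144 nt, was the most even of the 20, at 14965, 15928, 16982 and 16202 CPM, a highest value 1.13 times the lowest. MSTRG.46887.1, of 3374 nt, was at 6171, 6053, 7024 and 8198. Both were the sole listed transcripts of their loci.

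The locus MSTRG.22830, with 7 transcripts that were all abundant, stood after MSTRG.10068 in counts, at 3.53%, 4.19%, 7.46% and 4.72% of unannotated counts. Its main transcript MSTRG.22830.6, of 6514 nt, was at 18507 CPM in pro-B, 22018 in pre-B, 39202 in immature B and 24664 in mature B cells. The immature B library was highest, and MSTRG.22830.6 kept between 52.3% and 52.5% of its locus in all 4 libraries. MSTRG.22830.1 was at 11374, 9114, 17785 and 15845 and was also highest in immature B cells.

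MSTRG.22116.2, of 2785 nt, showed the widest range of the 20. Its counts were 3430 in pro-B, 2067 in pre-B, 16410 in immature B and 39580 in mature B cells, or 1281, 611, 5233 and 15002 CPM. The level was lowest in pre-B and highest in mature B cells, 24.5 times apart, and the log2 ratio of mature B over pro-B was 3.55. MSTRG.26924.3, of 11012 nt, was at 2900, 2474, 4081 and 8566 CPM and also highest in mature B cells, with a log2 ratio of 1.56. MSTRG.27399.6, of 13521 nt, went the other way, at 7705, 9861, 7193 and 3932 CPM, with a log2 ratio of -0.97. MSTRG.255.1 was at 9509, 7675, 9464 and 6038, lowest in mature B cells. Relative to mRNA counts the pre-B library was not lowest for MSTRG.22116.2, whose log2 ratio of pre-B over pro-B turned from -1.07 to 1.12. On that scale immature B was the highest library for MSTRG.22116.2 and MSTRG.26924.3, with log2 ratios of mature B over immature B of -0.66 and -1.11.

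**Figure D3:**
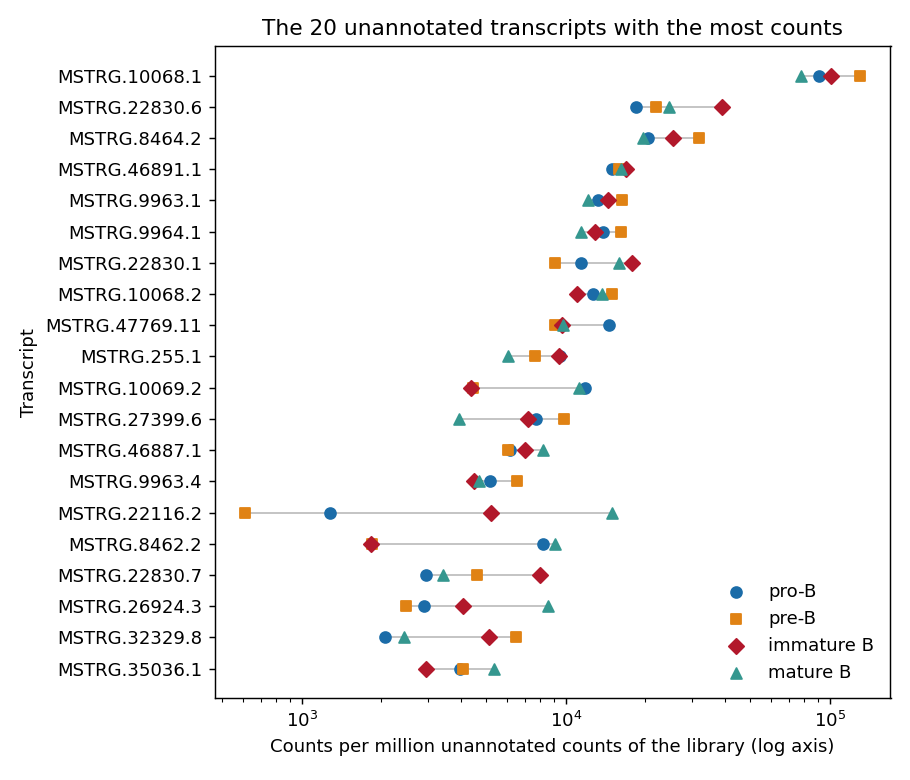
CPM of unannotated counts (x axis, log scale) of the 20 transcripts with the most counts (y axis), with 1 marker per library and a grey line from the lowest to the highest. MSTRG.10068.1 lies between 78063 and 129877, above all others, and MSTRG.22116.2 has the widest range, from 611 to 15002.

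A change between stages was called at a 2-fold difference, a log2 ratio of 1 or more in size, with a library at or under 3 counts set to 3. The background was the 8281 unannotated transcripts with 10 or more counts in all, of which the abundant ones are part. From pro-B to mature B cells 236 abundant transcripts (12.1%) were higher and 337 (17.3%) lower, against 21.4% and 23.9% of the background. The share called was below the background in both directions. Ratios of few counts vary more by counting error, so differences to this background are partly set by the choice of the transcripts. The median log2 ratio was -0.15, against -0.09 over the background, and the middle of the distribution lay between -0.68 and 0.40 at its quartiles. Scaled by TMM factors of edgeR the split was 267 higher and 299 lower, with a median of -0.01.

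**Figure D4:**
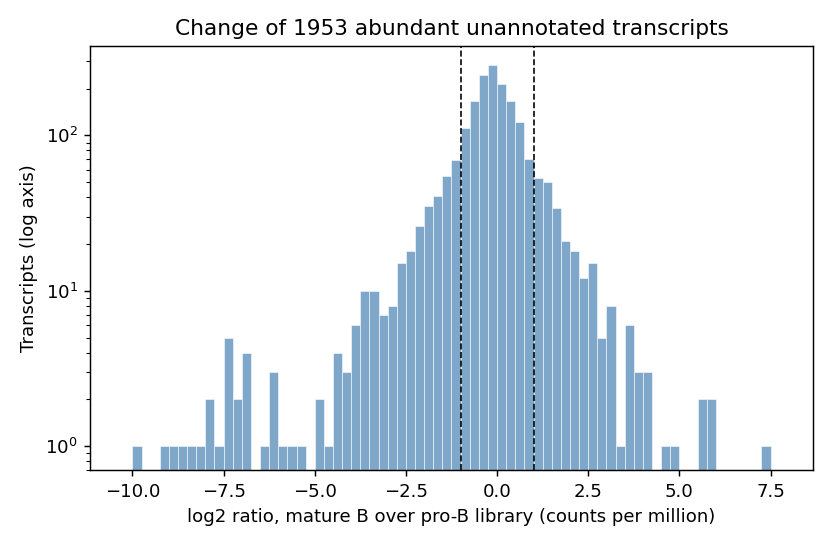
Number of abundant unannotated transcripts (y axis, log scale) by log2 ratio of mature B over pro-B CPM (x axis, bins of 0.25). Dashed lines mark the 2-fold limits, beyond which 236 transcripts lie to the right and 337 to the left.

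The steps between neighbouring stages were smaller. From pro-B to pre-B cells 113 abundant transcripts (5.79%) were higher and 186 (9.52%) lower, against 9.42% and 30.7% of the background. This direction depended on the scaling: with TMM factors 217 were higher and 121 lower, with size factors of DESeq2 202 and 124, and on the FPKM scale 184 and 138. Scaled to mRNA counts, 1805 were higher and 25 lower. TMM factors moved the median of the background by 0.33 on the log2 scale, DESeq2 factors by 0.30 and mRNA totals by 2.19.

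From pre-B to immature B cells 164 abundant transcripts (8.40%) were higher and 139 (7.12%) lower, against 16.9% and 11.4% of the background. With TMM factors the split turned to 130 higher and 168 lower, and with DESeq2 factors to 125 and 174. From immature B to mature B cells 155 (7.94%) were higher and 261 (13.4%) lower, against 25.2% and 15.6%. On the FPKM scale this split was 116 and 380, and scaled to mRNA counts it was 18 and 1824. More abundant transcripts were lower than higher in mature B cells under each of these scalings, while on the main scale more of the background were higher. Scaled to mRNA counts the median log2 ratio of the background was itself -2.09, so that split follows the denominator. No background share stands beside the FPKM and mRNA splits.

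The spread of each abundant transcript over the 4 libraries was taken as its highest over its lowest value. The highest value was less than 2 times the lowest for 1026 of them (52.5%), against 26.7% of the background, and less than 1.5 times for 477 (10.4% of the background). The median ratio of highest to lowest was 1.93, against 3.48 over the background. A minimum of 1000 counts leaves out transcripts of few counts, so these differences to the background are partly set by the rule. The share within 2-fold went from 48.9% among transcripts of 1000 to 2000 counts to 59.8% among those of 5000 to 10000 counts, and was 54.3% above. Under the TMM, DESeq2 and FPKM scalings 1003 (51.4%), 1011 (51.8%) and 956 (49.0%) were within 2-fold, but scaled to mRNA counts 10 (0.512%) were. Without the 2 libraries of low mRNA share, 1380 differed less than 2-fold between pro-B and mature B cells (70.7%, background 52.8%). Between those 2 libraries, pre-B and immature B, 1650 did so (84.5%, background 62.2%). Transcripts at or under 3 counts in both libraries had no ratio but stayed in the total, which lowered these background shares. Of the 8281, 5154 were within 2-fold and 2346 were called between pre-B and immature B cells, and the rest had no ratio.

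The 5 most even transcripts on the CPM scale were MSTRG.44641.1, MSTRG.8136.2, MSTRG.34252.3, MSTRG.46452.1 and MSTRG.32152.1, with a highest value 1.03 to 1.06 times the lowest. Their evenness holds for that scale. The log2 ratios of pre-B over pro-B were 0.27 to 0.35 with TMM factors and 2.14 to 2.21 on mRNA counts. MSTRG.46452.1, of 1552 nt, was at 852, 863, 820 and 838 CPM. MSTRG.8136.2, of 9479 nt, was at 491, 478, 474 and 486. In each of these loci no other unannotated transcript was listed with counts.

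At the other end 148 abundant transcripts differed 10-fold or more between their highest and lowest library, 7.58%, against 21.4% of the background. Of the abundant transcripts 22 were at or under 3 counts in some library (27.1% of the background were), 3 of them in pro-B, 3 in pre-B, 5 in immature B and 14 in mature B cells. A minimum of 1000 counts in all makes such values, and wide ranges from few counts, less likely. Nothing is therefore read from these differences to the background. At least 90% of the scaled values lay in pro-B cells for 4 abundant transcripts (0.507% of the background did so) and in mature B cells for 1 (0.145%). None reached this in pre-B or immature B cells (0.0121% of the background each).

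The largest falls from pro-B to mature B cells included 2 transcripts of the locus MSTRG.11264. MSTRG.11264.2, of 4237 nt, had counts of 2986, 23, 2 and 2, and MSTRG.11264.1, of 2408 nt, had 1629, 17.6, 6 and 1. Both were high in pro-B cells alone. MSTRG.18762.1, the sole listed transcript of its locus, had whole counts of 1052, 36, 3 and 0, and the pro-B CPM was at least 346-fold higher than in mature B cells against a floor of 3 counts per library. MSTRG.31090.4 had 1344, 2500, 330.5 and 0 counts, so that pro-B was at least 441-fold higher than mature B cells. It differed from the others in being highest in pre-B cells.

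The largest rises included MSTRG.17992.7, of 29386 nt, with counts of 70.1 in pro-B, 261 in pre-B, 1422 in immature B and 4017 in mature B cells. The CPM was higher at each step, though scaled to mRNA counts the log2 ratio of mature B over immature B was -0.43. The log2 ratio of mature B over pro-B was 5.86. The 12 listed transcripts of its locus together went from 337 and 204 to 1140 and 4475 CPM, a log2 ratio of 3.73. The share of MSTRG.17992.7 in this sum went from 7.76% in pro-B to 34.0% in mature B cells. MSTRG.17544.4, of 893 nt, had 0, 499, 720 and 182 counts, with its highest value in immature B cells. Its locus was at 92.6, 1078, 1268 and 441 CPM, a pre-B and immature B level above both others.

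Other rises of a transcript stood beside an even or lower sum of its locus. MSTRG.42915.4 had 0, 321, 268 and 496 counts, at least 168-fold higher in mature B than in pro-B cells against 3 counts, while its locus was at 938, 1789, 1012 and 922 CPM, a log2 ratio of -0.02. MSTRG.47769.7 had 0.14, 1025, 391 and 156 counts, and the listed transcripts of its locus summed to 17304, 12084, 12578 and 11348 CPM.

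The locus MSTRG.13112 held 2 transcripts of nearly the same length, 5061 and 5055 nt, that alternated between libraries. MSTRG.13112.1 was at 413 CPM in pro-B, 0.17 in pre-B, 259 in immature B and 0.20 in mature B cells. MSTRG.13112.2 was at 6.63, 360, 0.10 and 341. Each library assigned nearly all counts to 1 of them, and the locus sum of 419, 360, 260 and 341 CPM varied 1.62-fold. MSTRG.13112.1 is thus among the 5 largest falls and MSTRG.13112.2 among the 5 largest rises of a locus whose log2 ratio of mature B over pro-B was -0.30.

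**Figure D5:**
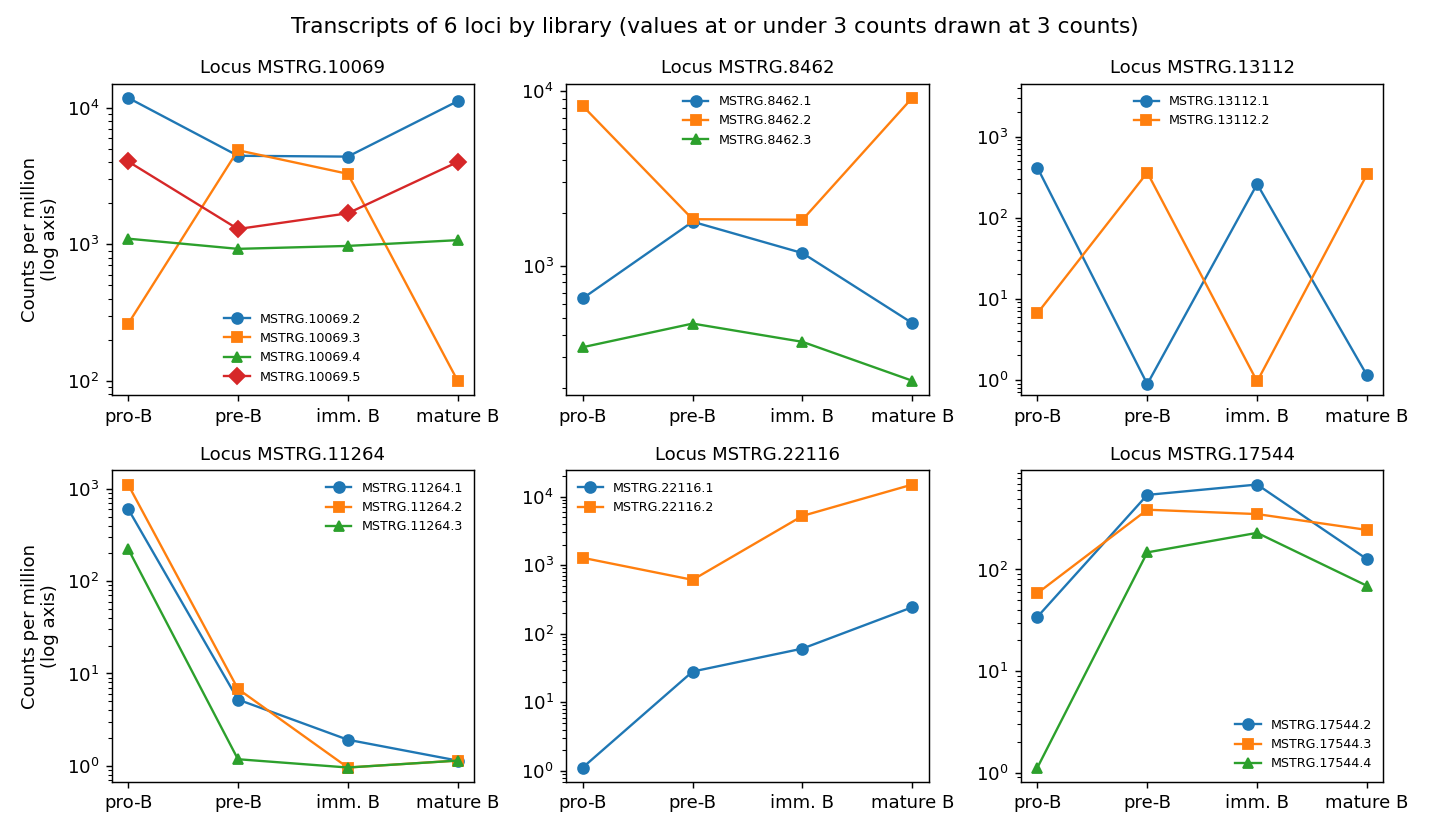
CPM of unannotated counts (y axis, log scale) of the transcripts of 6 loci in the 4 libraries (x axis), 1 line per transcript, leaving out those under 100 counts in all and drawing values at or under 3 counts at 3 counts. In MSTRG.13112 the lines cross at every step, and in MSTRG.10069 and MSTRG.8462 the main transcript is lowest in pre-B and immature B cells, which for pre-B against pro-B cells turned when scaled to mRNA counts.

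Loci with several transcripts were common. The 1953 transcripts came from 1387 of the 6412 loci with an unannotated transcript. Of these, 333 held 2 or more of them and 2 held as many as 9. In 99 of the 333 the transcript with the most counts was not the same in all libraries. In 3 of the 333 loci 1 abundant transcript was 2-fold higher and another 2-fold lower in mature B than in pro-B cells, and in 5 this was so for pre-B against pro-B cells. Of the 573 transcripts called from pro-B to mature B cells, 374 shared a locus with another listed transcript, and for 50 the sum of the locus did not differ 2-fold. Among all 1953, 754 were the sole listed transcript of their locus and the rest shared it. The share among the called ones is near that, so nothing is read from the 374.

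Whole counts carry no sign of reads divided between transcripts. All 4 counts were whole for 556 abundant transcripts, of which 62 were higher and 90 lower in mature B than in pro-B cells, 27.3% called against 29.3% of all abundant transcripts.

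The side on which pre-B and immature B values lay of those of pro-B and mature B cells was counted. For 331 abundant transcripts (16.9%) both pre-B and immature B were above both others, against 12.2% of the background, and for 391 both were below, against 31%. These counts moved with the scaling, to 583 above and 212 below with TMM factors and 541 and 239 with DESeq2 factors. They were 633 and 174 on the FPKM denominators and 1800 and 15 on mRNA counts. The background moved as well, to 18.5% above and 25.8% below with TMM factors and 17.5% and 26.6% with DESeq2 factors. Its shares were 21.13% and 19.97% on the FPKM denominators and 70.3% and 6.23% on mRNA counts. At a 2-fold distance from both others, 26 abundant transcripts were above (2.06% of the background) and 32 below (12% of the background). The level was higher at each step for 94 (4.81%, background 4.29%) and lower at each step for 190 (9.73%, background 7.81%), a split that turned to 153 and 111 with TMM factors, to 150 and 116 with DESeq2 factors and to 11 and 8 on mRNA counts, and was 112 and 130 on the FPKM denominators.

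The locus MSTRG.10069 carried this pairing within itself. Its main transcript MSTRG.10069.2, of 475 nt, was at 11851 CPM in pro-B, 4455 in pre-B, 4393 in immature B and 11191 in mature B cells. MSTRG.10069.3, of 367 nt, was at 261, 4890, 3286 and 100. The first was high where the other was low, and the shares of MSTRG.10069.3 in the locus, which no scaling alters, were 1.51%, 42.3%, 31.8% and 0.611%. The locus as a whole was at 17261, 11566, 10343 and 16376 CPM. For MSTRG.10069.2 the log2 ratio of pre-B over pro-B was -1.41, which scaled to mRNA counts became 0.78.

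The locus MSTRG.8462 behaved alike. MSTRG.8462.2, of 453 nt, was at 8167, 1839, 1826 and 9097 CPM, and MSTRG.8462.1, of 2177 nt, at 649, 1780, 1177 and 468. The share of MSTRG.8462.2 in the locus was 89.2% in pro-B, 45.0% in pre-B, 54.2% in immature B and 93.0% in mature B cells. The log2 ratio of pre-B over pro-B for MSTRG.8462.2 was -2.15, and 0.04 scaled to mRNA counts. In the locus MSTRG.22830 the transcript MSTRG.22830.2 was at 274, 3699, 5045 and 275 CPM, with 0.775%, 8.83%, 6.76% and 0.582% of the locus. MSTRG.32329.8, which held 97.2 to 98.5% of the counts of the listed transcripts of its locus, was at 2075, 6471, 5114 and 2432. The mRNA share of the libraries was paired in the same way, and its part in these values was not tested.

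The libraries were compared pairwise over the 1953 transcripts by Pearson's r of log2 CPM values, as a description over transcripts that share library and depth. It was highest for pre-B and immature B cells, at 0.81, and lowest for pre-B and mature B cells, at 0.49. Pro-B and mature B cells gave 0.54, pro-B and pre-B cells 0.76, and immature B and mature B cells 0.69. Over the background r was higher, from 0.72 for pre-B and mature B to 0.91 for pre-B and immature B cells. The median absolute log2 difference of the 1953 was 0.39 between pro-B and pre-B cells and 0.41 between pre-B and immature B cells. It was largest between pre-B and mature B cells, at 0.60. Over the background it was least between pre-B and immature B cells, at 0.52, and 0.74 between pro-B and pre-B cells. Such differences depend on the scaling, since on mRNA counts the median log2 ratio was 2.07 for pre-B over pro-B and -0.14 for mature B over pro-B cells.

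Annotated lncRNAs of a list of 18 were set beside them on the FPKM scale, with transcripts summed by gene and Norad not listed. Of the 16 with 10 or more counts, 13 had both pre-B and immature B values below both others. No share over all annotated transcripts stands beside this count, so it is read for the list only. Some of the 16 had few counts, such as Snhg5 with 24, 0, 5 and 21. Malat1 had an FPKM of 123 in pro-B, 22.6 in pre-B, 48.0 in immature B and 171 in mature B cells. Xist, which coats the inactive X chromosome, was at 36.1, 2.39, 2.64 and 26.8. On the FPKM denominators pre-B values of 5 of the 56 abundant annotated transcripts were 2-fold above and of 7 were 2-fold below those of pro-B cells, which held for 184 and 137 of the 1953 unannotated ones. The median log2 ratio of pre-B over pro-B was 0.02 for the annotated and 0.14 for the unannotated ones.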

How the data were processed

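The 4 RNA libraries, 1 per stage, were assigned by their labels. The authors removed rRNA reads with Bowtie2, aligned with HISAT2 and assembled with StringTie. Unannotated models were kept by Cuffcompare class, length and exon number, and the classes kept include models that overlap a known gene. Estimated counts from StringTie were deposited without normalization, many of them not whole. The deposited FPKM values are, by the authors' formula, those counts per kilobase and per 1000000 fragments mapped to reference genes. The submitters' notes name mm9 and Bowtie 0.12.2, and no coordinates were used.

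Estimated counts were scaled to the library's sum over unannotated transcripts in Python 3.11.15 with pandas 2.3.3 and numpy 2.4.6, with 3 counts as floor and 2-fold as call. With 1 library per stage no test was run. TMM (edgeR 4.0.16) and DESeq2 1.42.0 factors gave other scalings only. The implied denominators were 5439634, 5749225, 5262129 and 5289746 fragments.

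The members and lists were chosen with earlier results of these data known. Transcripts were named if among the 20 with most counts, the 5 largest and 5 smallest log2 ratios of mature B over pro-B, the 5 most even, those nearest the count limit and the 3 most like MSTRG.10068.1, with the other transcripts of their loci. MSTRG.10069.3, MSTRG.22830.2 and the loci drawn were picked from these after their values were seen. Columns of functional annotation, circRNA and miRNA tables were not used here. The result of 1 marker list is not reported here.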

Additional observations from a re-analysis of the deposited data

How the results depend on the processing

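With 1 library per stage, no replicate could be left out, and sampling of RNA, cells or mice was not measured. No paired analysis was possible because each group has a single library numbered 1, so the groups compared share fewer than 2 numbers. Of 97 values under alternatives, 43 lay within 1.5 times the main count or within the counting interval, and 54 moved; where no construction is named, the cause was not tested. Totals of the lncRNA table, totals without MSTRG.10068.1, TMM, DESeq2 and FPKM scalings and sums over loci kept each count of 2-fold calls within 1.5 times, though not its direction. Scaled to mRNA counts, the called transcripts numbered 1830 from pro-B to pre-B and 1842 from immature B to mature B cells, and 10 were within 2-fold.

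In the order mature B against pro-B, pre-B against pro-B, immature B against pre-B and mature B against immature B, the main calls were 573, 299, 303 and 416. A minimum of 500 counts, which admits more transcripts, gave 990, 583, 534 and 739. A minimum of 2000 gave 273, 129, 139 and 205, with 569 within 2-fold. A 1.5-fold limit gave 933, 664, 649 and 796 with 477 within it, and a 4-fold limit gave 215, 86, 70 and 143 with 1592 within it. A further pair of alternatives was chosen after seeing the data. Transcripts with 4 whole counts gave 152, 75, 71 and 97, with 309 within 2-fold, and 1 transcript per locus gave 182 from pro-B to pre-B and 266 from immature B to mature B cells, each from fewer transcripts.

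From pro-B to mature B cells, the share of abundant transcripts was 91.5%, 94.6%, 94.1% and 91.8% at a minimum of 500, 72.0%, 78.3%, 76.6% and 73.4% at 2000, and 80.6%, 86.3%, 85.2% and 80.9% of the whole lncRNA table. The share of the top 10 was 25.9%, 31.7%, 30.2% and 24.2% over loci and 54.0%, 63.0%, 58.7% and 52.6% per kilobase of derived length. Ranked within the library it was 22.2% in pro-B, 27.5% in pre-B and 21.8% in mature B cells. Against a background of 100 or more counts the median log2 ratio of the abundant transcripts exceeded that of the background by 0.126 from pro-B to pre-B, and differed from it by -0.0725 from immature B to mature B cells, against 0.23 and -0.18 at 10 or more.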
